A study of Homo sapiens with 18 samples.

Results

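The subject is the set of RNA polymerase II (RNAPII) peaks at promoters in untransformed MCF10A-Er-Src cells, with and without triptolide (TPL). The members are all regions of 2 deposited peak lists, 11222 for cells given DMSO (NT) and 8653 for cells given TPL (NT + TPL), which is 19875 of the 39395 regions in the 4 lists of the series. The line is a human breast epithelial culture, MCF10A, that carries Src fused to the oestrogen receptor ligand-binding domain, and both groups carry this fusion without the tamoxifen that switches it on. NT cells received DMSO for 4 h and NT + TPL cells TPL (TPL-125nM in the labels) for 4 h. The other cells of the series were transformed with tamoxifen (TAM, TAM + TPL). RNAPII was immunoprecipitated and sequenced (ChIP-Seq) in 2 samples per group, with 1 input for NT and 1 for TAM cells, and poly-A RNA was sequenced (RNA-Seq) in 2 libraries per group. There is 1 peak list per group, and the names of all its peaks carry replicate 1, so a list may rest on 1 sample. Its regions carry a start and an end but no height, score or read count, and 10059 of the NT and 7800 of the NT + TPL regions hold an annotated transcription start site (TSS). Presence and width of a peak therefore have no replicate check, and the read depth behind a list is unknown.

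TFIIH is the general factor that opens DNA at the start site, through its XPB translocase, and phosphorylates the tail of RNAPII, through its kinase CDK7. TPL binds XPB covalently and blocks promoter opening. At many genes RNAPII that has initiated pauses shortly after the start site until P-TEFb releases it into the gene body. A RNAPII peak over a start site thus joins polymerase held at initiation with paused polymerase, and a peak that runs far past the start site covers elongating polymerase too. ETS factors, NF-Y and Sp1 bind short DNA elements (the ETS motif, the CCAAT box and the GC box) that are frequent next to the start sites of broadly expressed human genes.

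Promoter sequences are shown first because the classes of peaks described below differed in the elements they hold. A gene was called kept when its canonical start site lay in a peak of both lists, lost when it lay in an NT peak only, and new when it lay in an NT + TPL peak only. Each sequence runs on the gene's own strand, 5′ to 3′, from 250 bases before to 50 bases after the start site in the human genome build GRCh37 (hg19). Capitals mark matches to 7 motifs on either strand: the ETS motif CCGGAAG, the CCAAT box CCAAT, the GC box GGGCGG, an NRF1 motif GCGCATGC, the E box CACGTG, the AP-1 motif TGANTCA and the TATA box TATAAA. RPS14 (chr5:149829253-149829552, minus strand) and MRPS22 (chr3:139062612-139062911, plus strand) are ribosomal protein genes, the latter of the mitochondrial ribosome, with kept peaks and 2 and 3 ETS matches.
RPS14: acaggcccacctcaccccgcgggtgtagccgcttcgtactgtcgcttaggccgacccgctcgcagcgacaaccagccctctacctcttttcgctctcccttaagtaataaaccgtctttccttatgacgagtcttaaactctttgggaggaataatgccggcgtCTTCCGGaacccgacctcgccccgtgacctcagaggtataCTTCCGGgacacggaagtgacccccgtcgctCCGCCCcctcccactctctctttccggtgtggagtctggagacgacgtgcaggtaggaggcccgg
MRPS22: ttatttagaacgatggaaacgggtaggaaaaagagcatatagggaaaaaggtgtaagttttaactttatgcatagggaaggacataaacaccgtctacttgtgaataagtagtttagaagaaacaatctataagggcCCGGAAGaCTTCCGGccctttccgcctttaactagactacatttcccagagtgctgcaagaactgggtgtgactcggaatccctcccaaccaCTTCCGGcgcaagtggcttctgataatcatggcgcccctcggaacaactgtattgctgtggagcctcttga
LAMB1 (chr7:107643557-107643856, minus strand) and TGFB1 (chr19:41859778-41860077, minus strand) code for a laminin chain and a growth factor. Their peaks were lost, and their promoters hold 4 and 7 GC boxes and no ETS match.
LAMB1: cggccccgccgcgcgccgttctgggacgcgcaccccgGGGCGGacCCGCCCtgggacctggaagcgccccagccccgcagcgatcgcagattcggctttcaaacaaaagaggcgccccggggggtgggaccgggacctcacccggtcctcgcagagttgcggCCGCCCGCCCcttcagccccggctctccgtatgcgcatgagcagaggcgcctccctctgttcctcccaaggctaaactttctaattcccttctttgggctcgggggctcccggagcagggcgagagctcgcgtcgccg
TGFB1: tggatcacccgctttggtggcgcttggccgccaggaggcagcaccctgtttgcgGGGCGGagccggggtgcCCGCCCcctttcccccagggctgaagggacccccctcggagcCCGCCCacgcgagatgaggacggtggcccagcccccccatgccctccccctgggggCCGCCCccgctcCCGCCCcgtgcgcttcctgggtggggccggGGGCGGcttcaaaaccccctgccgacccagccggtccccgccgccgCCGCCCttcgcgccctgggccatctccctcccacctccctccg
CENPF (chr1:214776288-214776587, plus strand), a kinetochore protein of dividing cells, and ARID4A (chr14:58765023-58765322, plus strand), a chromatin protein that binds the retinoblastoma protein, had new peaks. Their promoters hold 4 and 6 CCAAT boxes.
CENPF: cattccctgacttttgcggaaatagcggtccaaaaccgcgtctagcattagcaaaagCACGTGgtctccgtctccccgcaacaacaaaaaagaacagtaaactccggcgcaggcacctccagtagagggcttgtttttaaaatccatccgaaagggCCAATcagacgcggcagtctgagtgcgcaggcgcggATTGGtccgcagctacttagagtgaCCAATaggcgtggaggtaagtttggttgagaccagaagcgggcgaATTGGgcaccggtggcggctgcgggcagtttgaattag
ARID4A: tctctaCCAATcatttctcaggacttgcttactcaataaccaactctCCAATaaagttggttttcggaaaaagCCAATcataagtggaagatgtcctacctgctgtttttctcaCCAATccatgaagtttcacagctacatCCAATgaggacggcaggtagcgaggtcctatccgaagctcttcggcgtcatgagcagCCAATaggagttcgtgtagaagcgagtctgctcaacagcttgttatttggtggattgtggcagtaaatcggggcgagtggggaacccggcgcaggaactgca

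The labelled cell type was checked against markers. Of 11 mammary basal epithelial markers, 9 had an NT promoter peak. KRT5 and KRT17, the leading basal keratins, had RNA levels of 6249.6 and 5776 FPKM and of 7284 and 6144 FPKM in the 2 NT libraries. KRT14 and TP63, further basal markers, had no peak at the canonical start site. None of 6 fibroblast and endothelial markers had an NT peak, and of 6 immune markers 1 did, the lysosomal gene CD68 (47.2 and 47.1 FPKM). PTPRC, the pan-leukocyte marker, had 0.58 and 0.34 FPKM, and COL3A1, a fibroblast collagen, was listed at 0. The immune markers LYZ (31.6 and 18.8 FPKM) and CD14 (10.9 and 9.18 FPKM) had RNA but no peak. Of 7 luminal markers 3 had an NT peak: KRT18 (443 and 377 FPKM), KRT8 (298 and 255 FPKM) and FOXA1 (2.81 and 4.07 FPKM). ESR1, the oestrogen receptor gene, had 199.7 and 248 FPKM with no promoter peak in either list, in a line that carries part of this receptor in its transgene. None of 389 olfactory receptor genes had a peak in either list.

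Most NT peaks met an NT + TPL peak, and few NT + TPL peaks met no NT peak, when any overlap was counted. Of 11222 NT peaks, 7949 overlapped an NT + TPL peak by at least 1 base, which is 70.8% (95% Wilson interval 70.0% to 71.7%, which covers counting error only), and 3273 (29.2%) did not. Of 8653 NT + TPL peaks, 532 (6.15%, interval 5.66% to 6.67%) overlapped no NT peak. The shares depended on the overlap asked for: with 50% of each peak shared 49.6% of NT peaks were kept and 35.7% of NT + TPL peaks were new, and with peaks of at least 1000 bases only 36.1% and 28.1%. The NT list covered 10559668 bases and the NT + TPL list 6140515. Peaks without a counterpart were narrow in both lists. Lost NT peaks had a median width of 400 bases against 730 for those with a counterpart, and new NT + TPL peaks had a median of 287.

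The share lost went with width. In the narrowest quintile of NT peaks (149 to 326 bases) 58.3% had no counterpart, in the next quintiles 33.7%, 21.6% and 16.7%, and in the widest (1163 to 46310 bases) 15.4%. Narrow peaks are also the ones that depend most on read depth and on the threshold of the peak caller. No depth was given, so depth and occupancy cannot be told apart here. The names of the peaks give the same cutoff of 0.02 for both lists. They number all peaks called along the genome, up to 27010 in NT and 19858 in NT + TPL, so the listed peaks are 41.5% and 43.6% of those called. The numbering also tells where an unlisted peak could lie. Of 3242 lost NT peaks with a listed NT + TPL peak on either side, 1858 (57.3%) lay between neighbours with consecutive numbers, so that no NT + TPL peak of any kind stood between them.

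Peaks that stayed were narrower at both ends. For 7033 pairs that matched 1 to 1, the median width was 726 bases in NT and 566 in NT + TPL, and the median ratio was 0.851 (log2 -0.23, 95% interval -0.25 to -0.22). A width at least 1.5-fold smaller, called narrowed, was found in 2309 pairs (32.8%), and one at least 1.5-fold larger, called widened, in 595 (8.46%). In 4548 pairs whose canonical start sites all lay on one strand, the upstream edge lay a median of 27 bases further downstream with TPL (interval 22 to 31). The downstream edge lay further back towards the start site, with a median shift of -32 bases (-37 to -27). A retreat of more than 500 bases was found at the downstream edge in 436 pairs (9.59%) and at the upstream edge in 178 (3.91%). Where both peaks held the same single start site (4328 pairs), the median distance from it to the upstream edge was 282 bases in NT and 210 in NT + TPL. To the downstream edge it was 316 and 284 bases.

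The broadest peaks were mostly much narrower with TPL. There were 191 NT peaks and 40 NT + TPL peaks of at least 5000 bases. Of the 191, 25 met no NT + TPL peak, and of the 103 that paired 1 to 1, 84 were narrowed and 18 still had 5000 bases. The median width of these 103 was 7160 bases in NT and 1157 in NT + TPL.

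The most narrowed coding gene was KRT7, a simple epithelial keratin, whose peak of 27366 bases (chr12:52624236-52651601) shrank to 181 bases (chr12:52626917-52627097). TNS4, a tensin of focal adhesions, went from 30791 to 293 bases, and PLEC, the plakin that ties hemidesmosomes to keratin filaments, from 32004 to 388. IL1A, the alarmin interleukin 1 alpha, went from 12235 to 171 bases, and GRK6, a kinase of G protein-coupled receptors, from 11279 to 217. These genes ranged widely in RNA, from 1154 and 977 FPKM in the NT libraries for KRT7 to 15.5 and 14.8 for GRK6. SLC20A1, a phosphate transporter, went from 19464 to 824 bases. ENO1, the glycolytic enolase, had 23919 bases in NT and 1140 at its start site in NT + TPL, outside the 1-to-1 pairs. The RNA of ENO1 was 726 and 659 FPKM in NT and 694 and 734 FPKM in NT + TPL, and the groups overlapped.

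Other peaks widened. CARHSP1, an RNA-binding protein with a cold shock domain, went from 489 to 3174 bases, and SRSF7, a splicing factor of the SR family, from 2167 to 11493. C12orf4 went from 187 to 852 bases, ADAMTSL4, a matrix protein, from 736 to 3213, and CUL3, a ubiquitin ligase scaffold, from 314 to 1257. A wider peak went with less RNA at SRSF7, which had 51.5 and 46.5 FPKM in NT and 8.8 and 8.14 FPKM in NT + TPL (log2 fold change -2.54, SE 0.14, adjusted p = 0.000195 by edgeR). CARHSP1 had 12.2 and 12.5 FPKM in NT and 21.9 and 27.3 FPKM in NT + TPL and was not called (log2 fold change 1.0, SE 0.16, adjusted p = 0.00394).

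**Figure D1:**
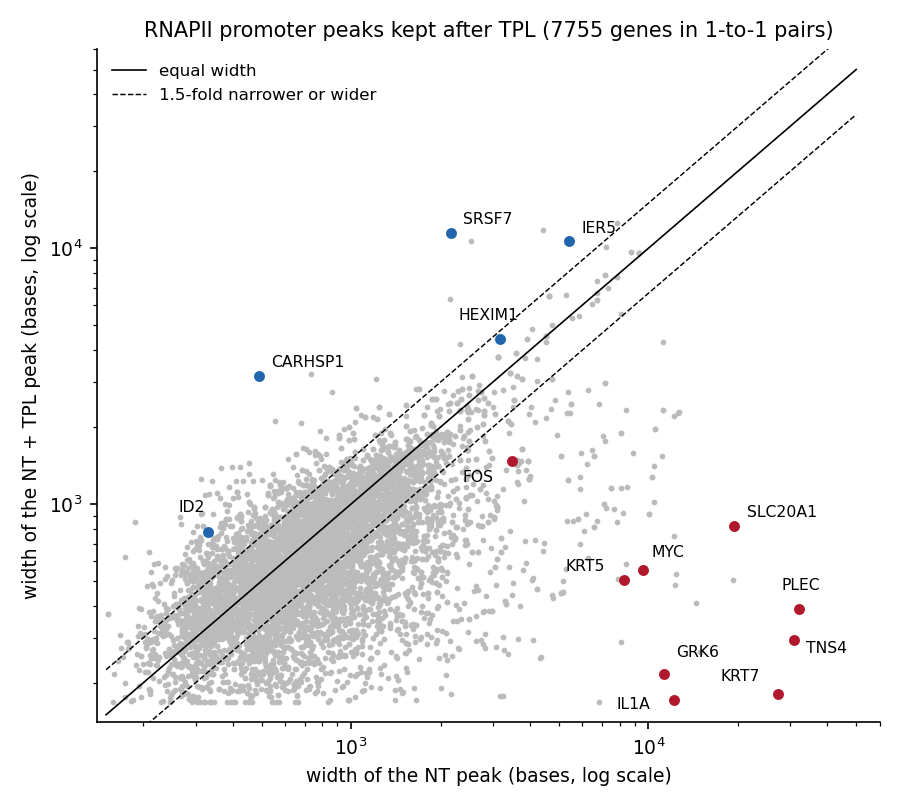
Width in bases of the NT peak (x axis) and the NT + TPL peak (y axis), both on log scales, for genes in 1-to-1 pairs. Each grey point is a gene, the solid line marks equal width and the dashed lines a 1.5-fold difference, and named genes with a narrower NT + TPL peak are red (KRT7 at 181 bases is far below the line) and with a wider one blue (SRSF7 at 11493 bases is above it).

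By gene, 11664 genes had their canonical start site in an NT peak and 9164 in an NT + TPL peak. Of the 11664, 2900 were lost (24.9%) and 8764 kept, and 400 genes had a new peak. Among protein-coding genes 2172 of 9488 with an NT peak were lost (22.9%), and 288 of 10406 without an NT peak had a new one (2.77%). Long noncoding RNA genes were lost in 669 cases and kept in 1357 (33.0% lost). For 2181 of the 2900 lost genes the whole NT peak had no counterpart, and for the other 719 (24.8%) it met an NT + TPL peak away from the start site. Of the 400 new genes, 218 lay in an NT + TPL peak that met no NT peak. With any annotated start site of the gene in place of the canonical one 23.9% were lost and 365 genes were new. With peaks within 1 kb of the start site 21.8% were lost and 253 were new.

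Peaks with start sites on both strands were kept in 1815 of 1984 cases (91.5%), and peaks with start sites on one strand in 5382 of 7138 (75.4%). The former were also wider, with a median of 1002.5 against 623.5 bases. On the autosomes, the share of coding genes lost ran from 17.9% on chromosome 14 to 27.4% on chromosome 21, and it was 35.9% on the X chromosome (85 of 237). The TAM and TAM + TPL lists come from separate samples. Of the 2900 lost genes, 1817 had a TAM peak, and 1309 of these (72.04%) had no TAM + TPL peak, against 20.6% of all 10110 genes with a TAM peak. Of the 400 new genes, 191 (47.8%) had a TAM + TPL peak and 92 (23%) a TAM peak. Widths were not compared with the TAM list, whose peak names carry another cutoff (0.1) and split 4584 peaks into lettered parts. The TAM + TPL names carry 0.02, so the shares above compare presence in lists with unlike cutoffs.

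Genes of the translation and splicing machinery rarely lost their promoter peak. Of 79 genes for cytosolic ribosomal proteins with an NT peak 0 were lost, against 22.9% of all coding genes. Of 77 genes for mitochondrial ribosomal proteins 1 was lost, MRPL11, which had an NT peak of 269 bases. None of 54 replication-dependent histone genes, of 32 genes for SR proteins, hnRNPs and CLK kinases, of 31 tRNA synthetase genes and of 21 p53 target genes was lost. Of 34 proteasome subunit genes 1 was lost, PSMB10, a subunit of the immunoproteasome. MRPL11 and PSMB10 had an NT + TPL peak within 1 kb of the start site.

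A kept peak could still differ in width. Peaks at cytosolic ribosomal protein genes, paired 1 to 1 or not, had a median of 5385 bases in NT and 1414.5 in NT + TPL. Of 49 paired genes 34 were narrowed (32.8% of all pairs). At its start site RPS2, of the small subunit, had 6809 bases in NT and 1411 in NT + TPL, and RPL28 had 9324 and 1157. Both lay outside the 1-to-1 pairs, so other peaks also met theirs. RPL6 had 6249 and 2786 bases and RPS14, whose promoter is printed above, 8492 and 1163. At mitochondrial ribosomal protein genes 20 of 72 pairs were narrowed, and MRPS22 went the other way, from 475 to 923 bases. Proteasome peaks had a median of 602 bases in NT, and 2 of 29 pairs were narrowed and 9 widened (8.46% of all pairs). Among splicing factors, HNRNPH1 went from 4414 to 11819 bases and HNRNPAB from 12696 to 2284.

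The basal transcription machinery mostly kept its peaks, as did most coding genes with an NT peak (22.9% lost), and these lists are short. All 9 TFIIH subunit genes with an NT peak were kept. ERCC3, which codes for XPB, the target of TPL, had 909 bases in NT and 700 in NT + TPL, outside the 1-to-1 pairs. CDK7, the kinase of the complex, went from 474 to 763. ERCC3 had 15.2 and 18.1 FPKM in NT and 10.7 and 9.68 FPKM in NT + TPL (log2 fold change -0.71, SE 0.15, adjusted p = 0.0104). Of 12 RNAPII subunit genes 11 were kept, and POLR2H, the lost one, had NT + TPL occupancy within 1 kb of its start site. Of 25 genes for P-TEFb, 7SK and pausing factors 23 were kept, among them CDK9, the kinase of P-TEFb (826 and 445 bases), and HEXIM1, the inhibitor that holds P-TEFb inactive (3175 and 4419 bases). BRD3, a bromodomain protein, lost a narrow peak of 396 bases. LARP7, a 7SK-binding protein, counted as lost by its canonical start site, but its NT peak of 233 bases met an NT + TPL peak.

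Lists of epithelial adhesion, inflammatory and clock genes had the largest shares of lost peaks among the lists examined that had at least 8 genes with an NT peak. Of 20 hemidesmosome, laminin and integrin genes with an NT peak, 12 were lost (60%, against 22.9% of all coding genes). Of the 12, 9 were also absent from the TAM + TPL list. Absence from that list was common among lost genes in general, as 604 of all 2900 (20.8%) had a peak in it. The NT peak over LAMB3, the laminin beta 3 chain of the epithelial basement membrane, was the widest of the NT list at 46310 bases (chr1:209781371-209827680). No NT + TPL peak met it, and the listed NT + TPL peaks on either side had consecutive numbers. For ITGB4 and LAMB1, 5 and 1 unlisted NT + TPL peaks lay between the listed neighbours. ITGB4, the integrin beta 4 chain of hemidesmosomes, lost a peak of 8002 bases (chr17:73716826-73724827), LAMB1 one of 2185 and LAMC1, a laminin gamma chain, one of 1975. LAMA3 and COL17A1, a laminin alpha chain and a hemidesmosomal collagen, had narrow NT peaks of 299 and 326 bases. The kept members PLEC and ITGA3 were narrowed, ITGA3, an integrin alpha chain, from 3037 to 567 bases. Of 11 members with an NT peak of at least 1000 bases, 5 were lost, beside 21.3% of all genes with such a peak.

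Of 18 NF-kB, cytokine and chemokine genes 8 were lost (44.4%, beside 22.9% of all coding genes). These were the secreted factors CXCL1, CXCL2, CXCL3, IL1B, CSF3, CCL20 and LIF, and the apoptosis inhibitor BIRC3. CXCL1 and CXCL2, chemokines that attract neutrophils, lost peaks of 1710 and 3772 bases, and IL1B, interleukin 1 beta, one of 8553. The regulators NFKBIA, RELA, NFKB1 and TNFAIP3 kept theirs, NFKBIA, the inhibitor of NF-kB, with a peak narrowed from 5934 to 1588 bases. In RNA, 10 of 21 genes of this list tested were lowered, kept NFKBIA and TNFAIP3 among them, beside 2.71% of all entries tested. Lowered and raised mean a log2 difference of 1.2 or more whose edgeR adjusted p was no higher than 0.001. Without NT replicate 1 or without NT replicate 2 the number lowered over all entries was 0.

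Keratin genes were lost in 4 of 8 cases (22.9% of all coding genes with an NT peak): KRT17, KRT6A, KRT6B and KRT6C. Basal epithelial markers were lost in 5 of 9 cases, beside the same 22.9%. These were KRT17, KRT6A, CDH3, LAMB3 and ITGB4, which these short lists share. KRT6A, KRT6B and KRT6C are close paralogs, as are CXCL1, CXCL2 and CXCL3, so RNA reads may be split among them. Of 15 EMT regulator and cadherin genes 8 were lost (53.3%, beside 22.9% of all coding genes). Among them were TGFB1 (631 bases), EPCAM, an epithelial adhesion molecule (742 bases), and CDH3, which codes for P-cadherin (1415 bases). Between the listed neighbours of the lost peak lay 5 unlisted NT + TPL peaks for TGFB1 and 0 for EPCAM. ESRP2, an epithelial splicing regulator, kept its peak at 2796 and 383 bases and had 48.6 and 50.8 FPKM in NT and 3.91 and 2.08 FPKM in NT + TPL (log2 fold change -4.06, SE 0.26, adjusted p = 0.000238). Of 10 circadian clock genes 6 were lost, beside 22.9% of all coding genes. Among them were the repressor PER2, the activator BMAL1 and BHLHE40, with NT peaks of 887, 288 and 3531 bases. With a window of 1 kb around the start site 11 of 17 clock genes were lost, beside 21.8% of all genes, and BMAL1 was kept. CLOCK, the partner of BMAL1, was kept (1646 and 1556 bases).

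Immediate early genes, which respond within minutes to growth factors, were lost in 2 of 32 cases (22.9% of all coding genes). Of 25 pairs 12 were narrowed (32.8% of all pairs) and 6 widened (8.46% of all pairs). FOS, a subunit of AP-1, went from 3489 to 1475 bases, its partner JUN from 4076 to 1429, the zinc finger factor KLF6 from 10272 to 1276 and the growth regulator MYC from 9600 to 553. In the other direction IER5 went from 5387 to 10670 bases. FOSL2, another AP-1 subunit, and IER2 were the lost members, with NT peaks of 5805 and 6439 bases. Of 38 members tested in RNA, 10 were lowered (2.71% of all entries) and 1, IER5, was raised (1.22% of all entries).

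**Figure D2:**
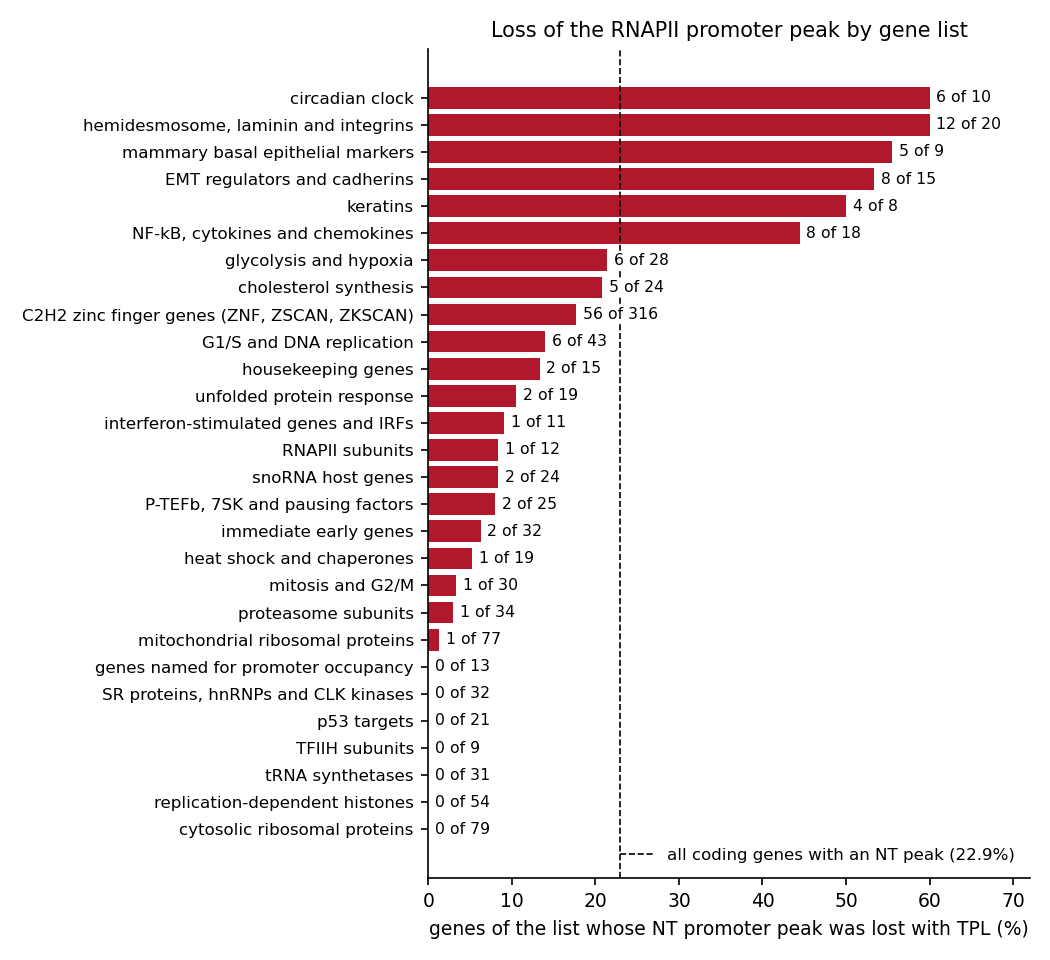
Share (%, x axis) of the genes of each list with an NT promoter peak whose peak was lost with TPL, for lists with at least 8 such genes (y axis), with the count beside each bar and the share over all coding genes as a dashed line (22.9%). Ribosomal protein, histone and splicing lists are at or near 0, and the clock, hemidesmosome, EMT and keratin lists are at 50% to 60%.

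New peaks were found at genes of mitosis. Of 37 genes of mitosis and G2/M, 30 had an NT peak, 29 of them kept, and all the other 7 had a new peak (2.77% of coding genes without an NT peak). These were NEK2, a centrosomal kinase, PRC1, a spindle midzone protein, CENPF, the spindle checkpoint kinase BUB1B, the separase ESPL1, DLGAP5, a spindle protein, and the phosphatase CDC25C. The new peaks had from 407 bases (CDC25C) to 1084 bases (PRC1), and none of these genes had a TAM or TAM + TPL peak. With a window of 1 kb, or with any annotated start site, 6 genes of the list were new. RNA of these genes was low, from 0.12 and 0.19 FPKM for CDC25C to 4.82 and 3.01 FPKM for NEK2 in NT, and NEK2 had 5.13 and 7.66 FPKM in NT + TPL. Their edgeR adjusted p ran from 0.0179 (CDC25C) to 0.713 (CENPF). Of the kept members PTTG1, which codes for securin, was raised, with 45.1 and 41.1 FPKM in NT and 137 and 109 FPKM in NT + TPL (log2 fold change 1.51, SE 0.16, adjusted p = 0.000942).

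New genes with a high RNA level in NT + TPL were the autophagy gene GABARAP (new peak of 1063 bases), P4HB, a protein disulphide isomerase (595 bases), PSMD8, a proteasome subunit (759 bases), CSNK2B, the regulatory subunit of casein kinase 2 (286 bases), and PNPLA2, a triglyceride lipase (7595 bases). For GABARAP, P4HB, PSMD8 and PNPLA2 an NT peak already lay within 1 kb of the start site. The lost genes with the highest RNA level in NT were KRT17, KRT6A, IFITM3, HSPB1, SAA1 and MUC1, with NT peaks from 787 bases (HSPB1, a small heat shock protein) to 8108 bases (KRT6A). Their RNA adjusted p by edgeR ran from 0.00531 (KRT6A) to 0.26 (HSPB1), above the limit of 0.001. Between the listed neighbours of the lost peak lay 7 unlisted NT + TPL peaks for HSPB1, 1 for IFITM3 and 0 for the others. KRT17 had 7284 and 6144 FPKM in NT and 5805 and 4947 FPKM in NT + TPL (log2 fold change -0.33, SE 0.14, adjusted p = 0.108), and MUC1, a mucin, had 1021 and 1388 FPKM in NT and 1105 and 392 FPKM in NT + TPL, with overlapping groups.

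Of 16 genes that the study names for promoter occupancy and that were matched here, 13 were kept, ARID4A was new, and SKI and EGR4 had no peak at the canonical start site. Peaks of both lists lay within 1 kb of the start site of SKI. The new ARID4A peak had 1288 bases (chr14:58764177-58765464), and an NT peak lay within 1 kb. Among the kept, HEXIM1 went from 3175 to 4419 bases, POLR2A, the large subunit of RNAPII, from 1400 to 1708, and ID2, an inhibitor of DNA binding, from 330 to 774. VEGFA, an angiogenic growth factor, had 4267 bases in NT and 307 at its start site in NT + TPL. The study names these genes for unlike behaviours, such as reduced occupancy at VEGFA and raised occupancy at PHACTR4 and CEMIP2. PHACTR4 went from 1044 to 541 bases and CEMIP2 from 861 to 495. Of 12 pairs in this list 3 were narrowed and 1 widened. The lists give no height, so occupancy itself was not compared. SOX9, a transcription factor (273 and 305 bases), CRY2, a clock repressor (281 and 305 bases), and CLU, a secreted chaperone (274 and 406 bases), had narrow peaks in both lists.

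The classes were then compared in RNA. A call needed an edgeR adjusted p no higher than 0.001 together with a log2 difference of 1.2 or more in either direction, and of 16948 entries 206 were raised (1.22%) and 460 lowered (2.71%). The median RNA change was lower for genes with lost peaks than for genes with kept peaks, and higher for genes with new peaks, but it was higher still for genes with no peak in either list. The median log2 fold change was -0.36 for 2034 lost genes tested (95% interval -0.42 to -0.31), -0.12 for 6727 kept genes (-0.14 to -0.09) and 0.32 for 260 new genes (0.21 to 0.50), beside 0.09 over all entries. For 4931 genes with no peak in either list, which like the new genes lacked an NT peak, it was 0.59 (0.55 to 0.62). Of the lost genes 151 (7.42%) were lowered and 7 (0.344%) raised. Of the kept genes 208 (3.09%) were lowered and 105 (1.56%) raised, and of the new genes 2 (0.769%) were lowered and 11 (4.23%) raised. The intervals take genes as units, and genes are not replicates of the treatment. The values are relative to each library, so a fall shared by all genes does not show. A positive value can belong to a gene that fell less than the rest. Fewer cells and less RNA per cell cannot be told apart either.

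The same order was seen among kept peaks by width. Genes whose peak narrowed had a median of -0.31 (1741 tested, 6.32% lowered and 0.689% raised), those in between -0.08, and those whose peak widened 0.09 (509 tested, 0.589% lowered and 4.13% raised). RNA level moved with the classes as well. Among coding genes the median was 7.39 and 7.91 FPKM in the 2 NT libraries for lost genes, 11.8 and 12.4 FPKM for kept genes, and 3.41 and 3.71 FPKM for new genes. From the lowest to the highest quintile of NT level, the share lost was 32.5%, 26.6%, 22.2%, 17.8% and 15.6%, while the median width of the NT peak went from 573 to 1005 bases. The part of level and width in the differences between classes was not tested.

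The RNA calls rest on 2 libraries a group, described as biological replicates, and on the spread shared among 4 groups, and the p-values measure only the spread between these libraries. Without NT replicate 1 or without NT replicate 2, 0 entries were raised and 0 lowered in edgeR (3217 and 3797, and 2845 and 3319, had an unadjusted p under 0.05), so none of the calls named in the text, on lists or single genes, was made in either fit. DESeq2 on all libraries gave 958 raised and 1598 lowered. Without NT+TPL replicate 1 edgeR gave 74 and 139, and without NT+TPL replicate 2 it gave 8 and 11. The medians of the lost, kept and new genes kept their order and sign in each of these edgeR fits.

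**Figure D3:**
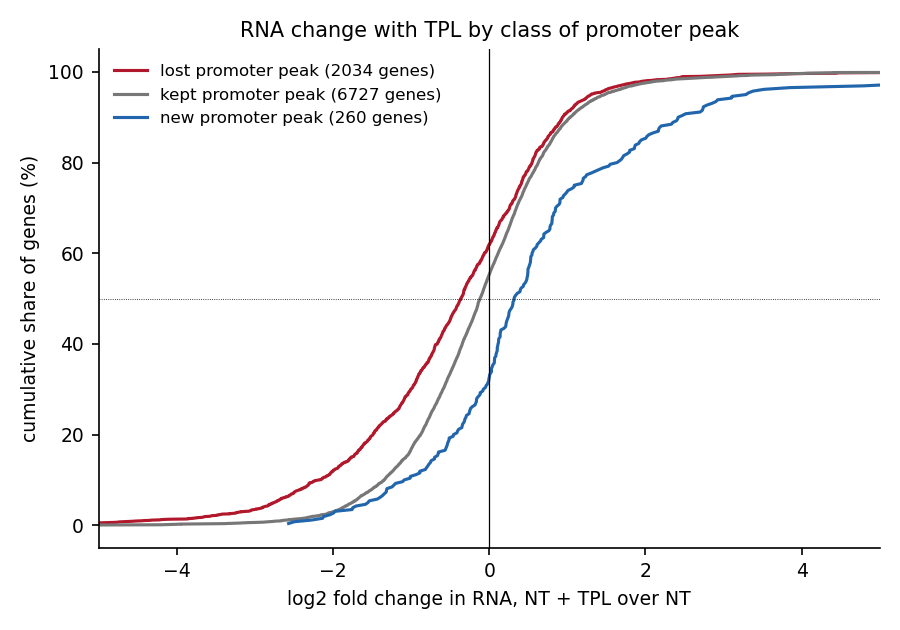
Cumulative share of genes (%, y axis) by log2 fold change in RNA, NT + TPL over NT (x axis), for genes with a lost (red), kept (grey) or new (blue) promoter peak. At the 50% line the lost curve is to the left of the kept curve (medians -0.36 and -0.12) and the new curve to the right (0.32).

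The largest falls in RNA among lost genes were at DKK1, LRIG3, FST and CXCL1. DKK1, a Wnt inhibitor with an NT peak of 5633 bases, had 103 and 129 FPKM in NT and 0.29 and 0.29 FPKM in NT + TPL (log2 fold change -8.61, SE 0.81, adjusted p = 0.000628). FST, which codes for the activin antagonist follistatin, had 26.5 and 21.2 FPKM in NT and 0.43 and 0.38 FPKM in NT + TPL (log2 fold change -5.85, SE 0.28, adjusted p = 0.000178). LRIG3, a membrane regulator of growth factor signalling, had 5.59 and 6.96 FPKM in NT and 0.06 and 0.04 FPKM in NT + TPL. The groups did not overlap in these genes, which the rule that chose them required. CXCL1 had 142 and 149 FPKM in NT and 4.32 and 1.35 FPKM in NT + TPL (log2 fold change -5.69, SE 0.50, adjusted p = 0.000518), and IL1B had 154 and 142 FPKM in NT and 6.12 and 6.82 FPKM in NT + TPL (log2 fold change -4.52, SE 0.31, adjusted p = 0.000259). Among keratins KRT6B had 151 and 169.7 FPKM in NT and 7.36 and 6.3 FPKM in NT + TPL (log2 fold change -4.56, SE 0.15, adjusted p = 0.000163), and among the adhesion genes LAMB3 had 266 and 286 FPKM in NT and 42.5 and 27 FPKM in NT + TPL (log2 fold change -3.0, SE 0.22, adjusted p = 0.000323). Both treated libraries lay below both controls in each, which for CXCL1 the rule required. Between the listed neighbours of the lost peak lay 1 unlisted NT + TPL peak for DKK1 and 1 for IL1B. Whether it stood at the start site is unknown. For LRIG3, FST, CXCL1, KRT6B and LAMB3 the number was 0.

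Other lost genes had more RNA with TPL, relative to the library. ITGB4 had 366 and 393 FPKM in NT and 724 and 533 FPKM in NT + TPL, with no overlap between the groups, and was not called (log2 fold change 0.72, SE 0.17, adjusted p = 0.019). LAMB1 was raised, with 23.4 and 31.1 FPKM in NT and 301 and 198 FPKM in NT + TPL (log2 fold change 3.18, SE 0.24, adjusted p = 0.000348). ACSL1, a fatty acyl-CoA ligase, was raised too, with 29.1 and 34.3 FPKM in NT and 178 and 118 FPKM in NT + TPL (log2 fold change 2.20, SE 0.22, adjusted p = 0.000723). The promoter of LAMB1 is printed above and does not hold the ETS letters. NEDD4L, a ubiquitin ligase with a kept peak at another annotated start site, was raised at 5.92 and 5.79 FPKM in NT and 28.5 and 22.6 FPKM in NT + TPL, and ABTB3 at 0.91 and 1.07 FPKM in NT and 5.19 and 5.24 FPKM in NT + TPL. LAMB1, ACSL1, NEDD4L and ABTB3 all had peaks in both the TAM and the TAM + TPL list. The NT peaks of ACSL1, NEDD4L and ABTB3 were narrow, at 459, 328 and 176 bases. Between the listed neighbours of the lost peak lay 5 unlisted NT + TPL peaks for ITGB4, 1 for LAMB1 and 2 for ACSL1. For NEDD4L and ABTB3 the number was 0. Whether an unlisted peak stood at the start sites of ITGB4, LAMB1 and ACSL1 is unknown.

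Among new genes, HSPA2, a chaperone of the HSP70 family, had 0.92 and 1.05 FPKM in NT and 14.3 and 14.4 FPKM in NT + TPL (log2 fold change 3.85, SE 0.21, adjusted p = 0.000195). ALDOC, an aldolase of the brain, had 3.27 and 2.08 FPKM in NT and 18.2 and 20.7 FPKM in NT + TPL (log2 fold change 2.85, SE 0.28, adjusted p = 0.000716). In both genes each treated library was above each control, which the rule that chose them required. CCDC62 was listed at 0 in both NT libraries and at 3.4 and 5.27 FPKM in NT + TPL, and was called raised. MAFA, a transcription factor of the MAF family, had 0.05 and 0.1 FPKM in NT and 7.87 and 7.09 FPKM in NT + TPL. The 2 lowered genes with a new peak were SOX4, a transcription factor, with 28.3 and 24.6 FPKM in NT and 3.62 and 5.74 FPKM in NT + TPL, and PGP, a phosphatase, with 8.88 and 7.19 FPKM in NT and 1.63 and 2.04 FPKM in NT + TPL. Like HSPA2, both had an NT peak within 1 kb of the start site.

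Among kept genes, FOS had 503 and 576 FPKM in NT and 33.6 and 26.7 FPKM in NT + TPL (log2 fold change -4.17, SE 0.20, adjusted p = 0.000178), and its peak was narrowed. SNAI1, a repressor of epithelial genes with peaks of 451 and 360 bases, was raised, with 1.79 and 0.93 FPKM in NT and 21.9 and 14.4 FPKM in NT + TPL (log2 fold change 3.71, SE 0.40, adjusted p = 0.000956). HEXIM1, with a wider peak, was raised as well, with 21.4 and 20 FPKM in NT and 76.8 and 78.4 FPKM in NT + TPL (log2 fold change 1.90, SE 0.12, adjusted p = 0.000238). POLR2A had 71.3 and 78 FPKM in NT and 527 and 268 FPKM in NT + TPL and missed the limit of 0.001 (log2 fold change 2.39, SE 0.31, adjusted p = 0.00187). The treated libraries were above both controls, and so were those of the new gene ARID4A, which had 1.87 and 2.05 FPKM in NT and 5.44 and 8.66 FPKM in NT + TPL and was not called (log2 fold change 1.86, SE 0.28, adjusted p = 0.00334).

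**Figure D4:**
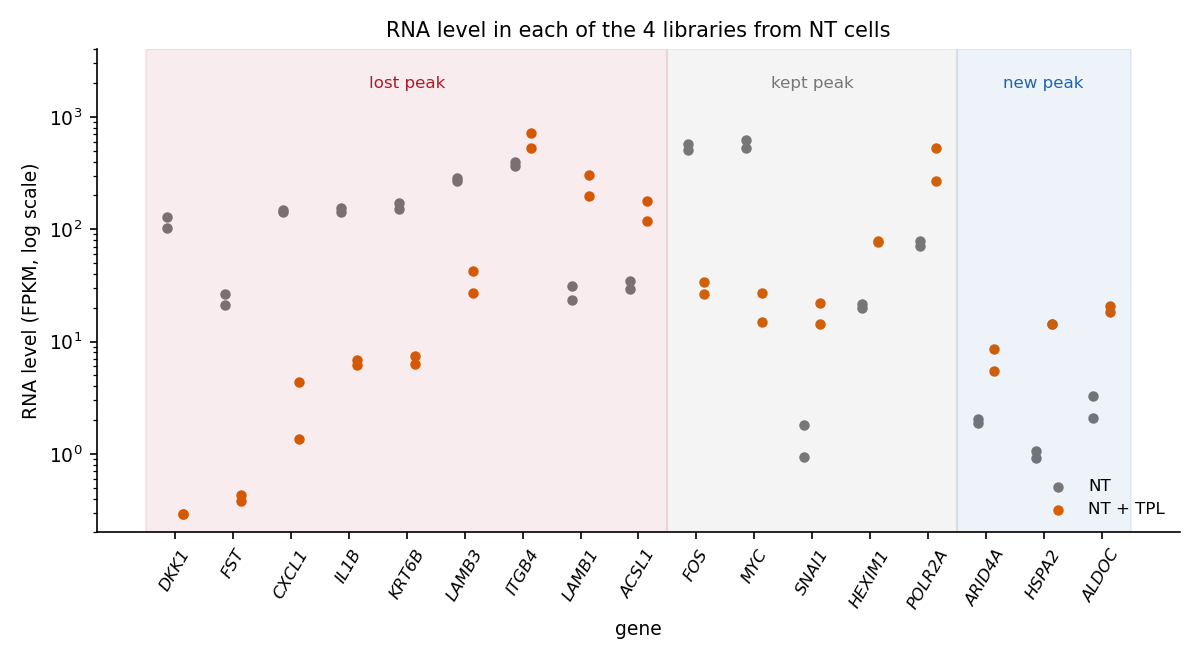
RNA level (FPKM, log scale, y axis) of 17 genes (x axis) in each of the 2 NT libraries (grey points) and the 2 NT + TPL libraries (orange points), grouped by lost, kept or new promoter peak. DKK1, FST, CXCL1, IL1B, KRT6B and LAMB3 lost their peak and are lower with TPL in both libraries, whereas ITGB4, LAMB1 and ACSL1 lost their peak and are higher.

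The promoters of the classes differed in the ETS motif. The letters CCGGAAG, on either strand, were present in 297 of 2895 promoters of lost genes (10.3%), in 2424 of 8763 of kept genes (27.7%), in 77 of 395 of new genes (19.5%) and in 7.42% of all 55015 promoters of this length. Read the other way, 10.9% of the 2721 genes with an NT peak and this motif were lost, and 29.1% of the 8937 without it. In 2.60% of the promoters with the motif a match shared a base with a match to another of the 7 motifs. The difference was present in each quintile of NT peak width. In the narrowest 28.3% were lost with and 51.8% without the motif, and in the widest 7.25% and 25.5%. It was present in peaks with start sites on one strand (13.1% and 32.9%) and on both strands (7.95% and 21.7%). In coding genes with at least 1 FPKM in both NT libraries 9.50% of lost and 27.7% of kept promoters held the letters. Genes that share a peak or a promoter are not independent, and a match of letters does not show that a factor was bound.

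**Figure D5:**
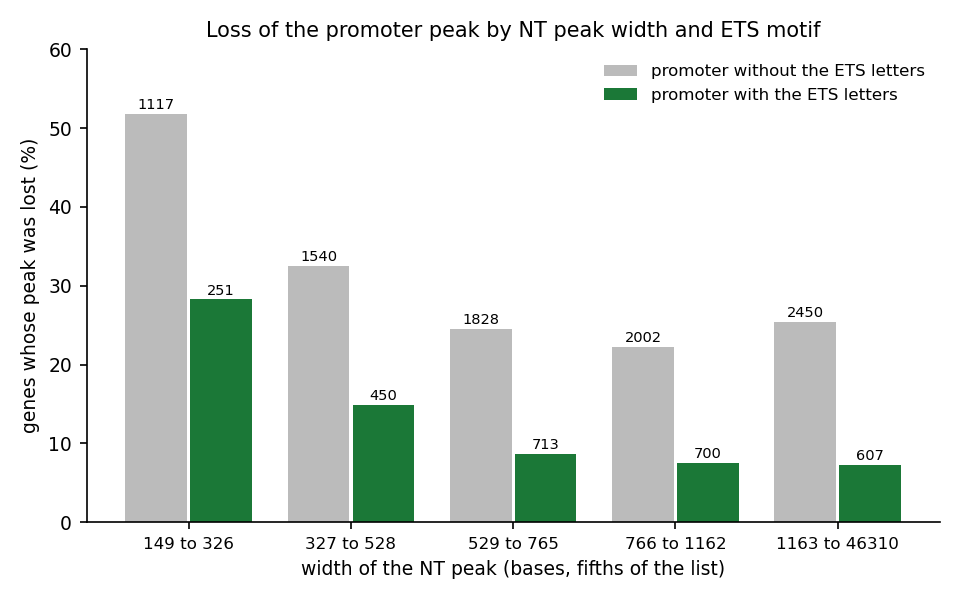
Share (%, y axis) of genes with an NT peak whose peak was lost with TPL, by width of the NT peak in bases (x axis, quintiles of the list) and by presence of the ETS letters in the promoter (green) or their absence (grey), with the number of genes above each bar. In each quintile the green bar is lower, from 28.3% against 51.8% in the narrowest to 7.25% against 25.5% in the widest.

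The other motifs differed less in percentage points, the CCAAT box most among them. It was in 29.3% of lost, 38.03% of kept, 49.4% of new and 35.7% of all promoters. The NRF1 motif was in 3.66% of lost, 7.99% of kept and 2.26% of all promoters. The GC box was in 78.5% of lost and 76.1% of kept promoters (32.9% of all), an order that turned with NT peaks of at least 1000 bases (71.4% and 75.9%). The E box was in 11.6% and 10.8% of lost and kept promoters (5.94% of all) and the TATA box in 3.83% and 4.48% (15.7% of all). The AP-1 motif was in 5.11% of lost and 3.05% of kept promoters (7.73% of all). Of the 415 genes with an NT peak and this motif 35.7% were lost, and of the 11243 without it 24.4%. Between 0.882% (TATA box) and 2.60% (ETS motif) of the promoters with a motif had a match that shared a base with another. Promoters of lost genes had a median GC content of 69.7%, those of kept genes 66.3% and those of new genes 64%, beside 52% over all. The share lost was 39.3% in the quintile with the highest GC (74.7% to 94%) and 17.7% to 25.4% in the others. The ETS letters were in 14.4% of promoters in that quintile and in 21.7% to 28.7% in the others. The ETS difference was not split by GC, so the part of GC in it was not tested.

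The ETS letters were unevenly spread over the lists as well. Among genes with an NT peak they were in 32 of 77 mitochondrial ribosomal protein promoters (41.6%), 29 of 79 cytosolic ones (36.7%), 14 of 31 of tRNA synthetases (45.2%), 142 of 316 of C2H2 zinc finger genes (44.9%), 4 of 9 of TFIIH and 5 of 12 of RNAPII subunits. They were in 2 of 54 histone and 5 of 32 splicing factor promoters, lists that were also kept. They were in 0 of 15 EMT and cadherin, 0 of 10 clock, 0 of 8 keratin, 1 of 18 cytokine and 3 of 20 hemidesmosome promoters. Zinc finger genes, with the letters often present, were lost in 56 of 316 cases (17.7%, beside 22.9% of all coding genes).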

How the data were processed

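Human MCF10A-Er-Src cells were profiled by RNAPII ChIP-Seq (antibody 8WG16) and poly-A RNA-Seq. According to the methods of the study, the authors aligned ChIP reads to hg19 with SOAP2 and called peaks over input with MACS2, while the submitters' processing notes name BWA, Bowtie2, RSEM, MACS 1.4.2 and HOMER. The 4 deposited peak lists give a chromosome, start, end and peak name, as other values. Both ChIP samples of a group point to the same list, all peak names carry replicate 1, and whether both entered it is not given in the sources used here. For RNA, the authors aligned reads with Bowtie2 and made expected counts and FPKM values with RSEM, as deposited per gene entry (23604 entries). The 4 NT libraries held 7533770 to 8100750 expected counts, which limits the precision of low genes.

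Peaks were compared by overlap of at least 1 base. Start sites were Ensembl canonical transcripts of GENCODE release 44 on GRCh37 (55064 genes), and RNA was joined by symbol (18584 genes). Genes with several entries (1052) were not tested. After rounding, the expected counts went into edgeR 4.0.16 (TMM, quasi-likelihood, Benjamini-Hochberg adjustment, 8 libraries in 1 fit of 4 groups). DESeq2 1.42.0 was an alternative. R 4.3.3, Python 3.11.15, numpy 2.4.6, pandas 2.3.3, scipy 1.17.1, statsmodels 0.14.6 and matplotlib 3.10.9 were used, and the fit was tested on simulated data. Intervals are Wilson intervals for shares and binomial order-statistic intervals for medians. Promoters ran from 250 bases before to 50 after the start site.

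The members and the 33 gene lists were chosen with earlier results of these data known. The genes named were those the study names for promoter occupancy, the lost and new coding genes with the highest RNA level, the most narrowed, most widened and widest kept peaks, the lost and new genes with the largest RNA changes in each direction, and the members of each list with the highest RNA level. Those chosen by RNA change had to be called raised or lowered, with groups that did not overlap. Genes outside this rule (RPL6, RPS14, MRPS22 and some further list members) were chosen after their values were seen. ChIP depth, input and the transformed cells, beyond presence of a peak and the shared fit, were not used here. Some genes and promoter sequences are not reported here.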

Additional observations from a re-analysis of the deposited data

How the results depend on the processing

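With 50% of each peak shared, 49.6% of NT peaks were kept and 35.7% of NT + TPL peaks were new. With the centre of a peak in a peak of the other list the shares were 60.9% and 9.19%. With both lists limited to peaks of at least 1000 bases, where a peak narrowed below the limit drops out, they were 36.1% and 28.1%. With widths of several NT + TPL peaks summed, the median log2 ratio was -0.20, with 31.4% narrowed and 13.0457% widened. A laxer fold limit gave 45.2% narrowed and 16.8% widened, and a 2-fold limit 20.03% and 2.57%. The genes lost were 23.9% with any annotated start site, 21.8% within 1 kb (253 new genes), 22.9% of coding genes and 21.3% of genes with an NT peak of at least 1000 bases. In coding genes of at least 1 FPKM the median GC of lost promoters was 70.7%. With NT peaks of at least 1000 bases it was 68% for lost and 67% for kept genes, the ETS letters were in 7.71% and 24.4%, and the CCAAT box in 26.3% and 36.98%.

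RNA calls are given as raised and lowered, over all, among lost and among kept genes. DESeq2 gave 958 and 1598, 60 and 428, and 335 and 741. An adjusted p of at most 0.05 gave 1658 and 1918, 96 and 488, and 425 and 818. With no filter on low counts 12 lost genes were raised and 313 kept genes lowered. The replicate block gave 0 and 0, 0 and 0, and 0 and 0 in edgeR (3700 and 3955 over all at an unadjusted p under 0.05), as did the fit over the 2 NT groups (3336 and 3532). The deviations of same-numbered samples correlated at -0.135, and with 2 pairs the numbers were not taken as pairing. A replicate block with crossed numbers gave 34 and 64, 1 and 25, and 22 and 30 calls. Entries summed per gene gave 682 and 1322, 34 and 353, and 248 and 634. Leaving out 1 library gave 0 to 74 and 0 to 139 over all, 0 to 3 and 0 to 53 among lost, and 0 to 45 and 0 to 53 among kept genes, with medians of -0.45 to -0.30 (lost), -0.15 to -0.083 (kept) and 0.34 to 0.38 (new). A lone library was assumed to vary like the other groups.

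The crossed numbers, the summed entries and the limit of 1000 bases on NT peaks of genes were chosen after seeing the data. The GC box, more frequent in lost than kept promoters over all genes, was less frequent with NT peaks of at least 1000 bases (71.4% and 75.9%), and the median RNA change of lost, kept and new genes kept its sign in each fit. Peak presence has no replicate check, its depth is unknown, and the cause of the differences between settings was not tested.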
